A study of Sus scrofa with 13 samples.

Results

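The comparison of arterial with portal cell infusion covered 8 of the 13 pig liver libraries of the study, 4 livers per route, and all 35670 genes of the count table. All 8 livers came from female Yorkshire pigs, had warm ischemia for 45 min, then reperfusion for 6 h, and were given 3 M (M for mega) human stromal cells per kg body weight early in reperfusion. These were BM-MSCs, mesenchymal stromal cells grown from bone marrow. In the arterial group the cells entered through the hepatic artery, by a catheter in its gastroduodenal branch, and in the portal group by puncture of the portal vein. The comparison asked whether the liver transcriptome at the end of reperfusion depended on the vessel that carried the cells. Ischemic controls, 3 livers with the same ischemia and reperfusion but without cells, serve as the reference level below, and 2 baseline libraries entered only the shared estimate of spread. The cells were human and the reads were mapped to the pig genome, so that RNA of infused cells that maps to a pig gene cannot be told apart from RNA of the liver. Each library came from 1 piece of whole liver tissue, and the p-values measure the spread between these pieces. The lobe that each piece was taken from is not given in the sources used here. The liver label was met by the data, since ALB, the gene of serum albumin, had between 468109.7 and 1752744 normalized counts in the 8 infused livers.

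The liver has 2 blood supplies that meet in the sinusoids, the fenestrated capillaries between the hepatocyte plates. The hepatic artery delivers oxygen-rich blood and also feeds the bile ducts and the walls of the larger vessels, whereas the portal vein carries most of the blood, from the gut and spleen. Cells injected into either vessel reach the sinusoids by a different path, and endothelial cells are the cells they meet on the way. Mesenchymal stromal cells are known for the factors they secrete, which act on inflammation and on vessels.

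Total counts on genes lay between 24339939 and 35949178 after arterial and between 20563848 and 31251501 after portal infusion, a difference that did not pass an exact two-sided permutation test (p = 0.200, n = 4 per route, smallest possible p = 0.0286). The leading variation between the 8 livers did not follow the route. The leading principal component of the 500 most variable genes held 72.1% of their variance and set arterial liver 1, portal liver 1 and portal liver 4, at 29.5, 46.1 and 20.2, apart from the other 5 livers, between -26.0 and -8.08. Both routes were spread along it, and the difference of their means did not pass the exact permutation test (p = 0.800, n = 4 per route). The same 3 livers had 15460, 13581 and 14264 genes with at least 1 read, the other 5 livers between 15831 and 18629, and what set the 3 livers apart was not tested. Where leaving out 1 liver, or these 3, moved a log2 fold change or the median of a list toward 0 by over 1.5 times, or across it, the value without is given beside it, for the single liver that moved it most. This was so for 1 liver at 56 of 95 named genes and 30 of 32 list medians, of which 11 and 17 turned their sign.

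**Figure D1:**
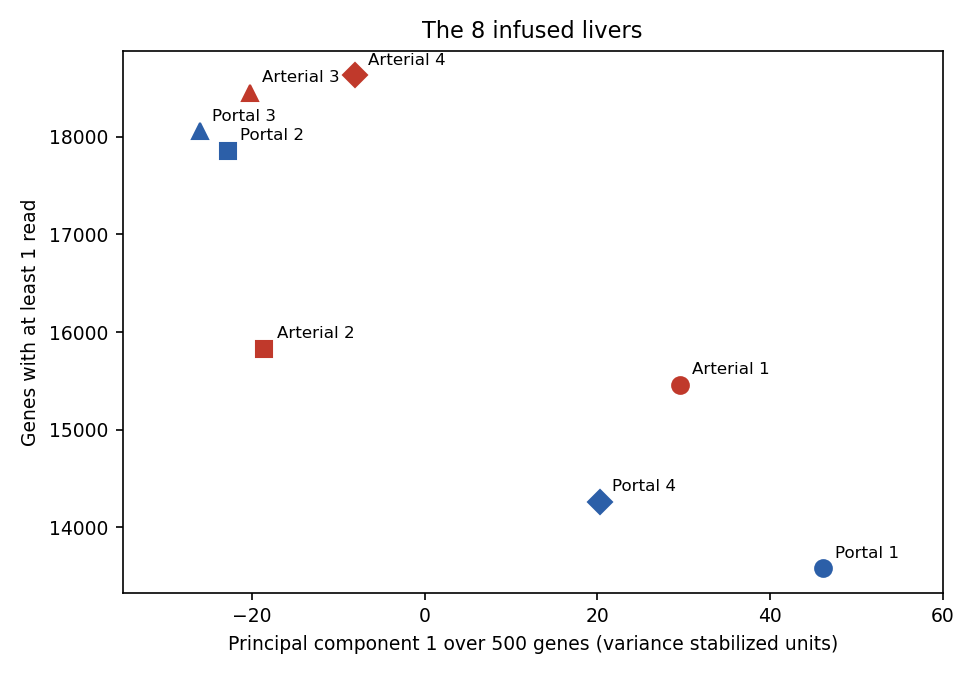
Each point is 1 infused liver, in red after arterial and in blue after portal infusion, with its score on principal component 1 on the x axis (500 most variable genes, variance stabilized units) and the number of genes with at least 1 read on the y axis. Arterial 1, Portal 1 and Portal 4 lie to the right with 13581 to 15460 genes, and livers of both routes lie on either side.

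No gene differed between the routes past the adjusted threshold of 0.05. The quasi-likelihood test of edgeR, adjusted by Benjamini-Hochberg, called 0 of the 16481 genes that passed the filter on low counts (0%), and the smallest adjusted p was 1.00. At an unadjusted p under 0.05 there were 396 genes (2.40% of those tested, fewer than the threshold itself would give if no gene differed), of which 179 were higher (1.09%) and 217 lower (1.32%) after arterial infusion. Of all genes tested, 52.9% had a log2 fold change above 0 and 47.1% below 0. Against the 3 ischemic controls, 258 genes (1.57%) had an unadjusted p under 0.05 after arterial and 460 genes (2.79%) after portal infusion, and these 2 comparisons share their controls. All log2 fold changes below are arterial minus portal unless another pair is named, and normalized counts are reads divided by the size factor of the library. Each log2 fold change of a gene comes from edgeR, with its standard error (SE), and each exact permutation test is two-sided on log2(normalized count + 1) of 4 against 4 livers, so that 0.0286 is the smallest p it can give. Over all genes tested the median log2 fold change was 0.04. At 232 genes (1.41%) the 4 arterial and the 4 portal livers did not overlap, with the arterial livers above at 150 genes (0.910%) and below at 82 genes (0.498%). Without the 3 livers that stood apart, 0 genes passed the adjusted threshold and 412 had an unadjusted p under 0.05.

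Since no gene passed the threshold, the genes described next are those with the smallest unadjusted p in each direction, and their values are a description of these 8 livers. They were chosen for a small p, so that the permutation p beside each is no independent evidence. Where values are set against each other, arterial livers 1 to 4 stand before portal livers 1 to 4. Among the 12 genes leading on the arterial side were genes of the endothelium, of hepatocyte metabolism and of receptors. CAVIN2, which encodes a coat protein of the caveolae that are abundant in endothelial cells, lies on chromosome 15 from 96476675 to 96490231 of Sscrofa11.1. Its normalized count was 950.3, 1195, 798 and 1009 in arterial livers 1 to 4 and 289, 539.8, 522 and 368 in portal livers 1 to 4, with 546, 667 and 883 in the controls. Every arterial liver was above every portal liver, and the controls lay between the means of both routes (log2 fold change 1.20, SE 0.34, exact permutation p = 0.0286). Leaving out any 1 liver kept the log2 fold change between 1.03 and 1.35, and without the 3 livers that stood apart it was 0.90. PTPRB, the gene of a phosphatase of endothelial junctions on chromosome 5 from 34656460 to 34794838, counted 477, 764, 445 and 1113 after arterial and 415, 267, 362 and 399 after portal infusion. Its routes did not overlap either, with arterial liver 4 highest (log2 fold change 0.98, SE 0.35, exact permutation p = 0.0286).

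The receptor genes on the arterial side were IL31RA and ACKR2. IL31RA, which encodes a receptor chain for the cytokine interleukin-31, counted 86.5, 116, 111 and 328 after arterial and 31.5, 68.2, 41.1 and 38.0 after portal infusion. The routes did not overlap, but arterial liver 4 was far above the others (log2 fold change 1.84, SE 0.56, exact permutation p = 0.0286), and without it the log2 fold change was 1.23. The controls, at 189.9, 133 and 83.1, were near the range of the arterial livers, and the portal livers were all below them (portal minus control -1.62, SE 0.59). ACKR2, the gene of a receptor that takes up and degrades inflammatory chemokines, counted 530.0, 778, 438 and 388 after arterial and 220.3, 157, 292 and 136 after portal infusion (log2 fold change 1.42, SE 0.46, exact permutation p = 0.0286). All arterial livers were above all portal livers, and leaving out any 1 liver kept the log2 fold change between 1.20 and 1.69. Against the controls at 411, 1069.9 and 283, the portal livers had a log2 fold change of -1.54 (SE 0.49) and the arterial livers -0.13 (SE 0.49). Portal livers 1, 2 and 4 were below all controls, whereas portal liver 3 was just above the lowest control. KCNJ15, a potassium channel gene, counted 129, 61.3, 31.6 and 355 against 31.5, 17.7, 17.1 and 54.0, so that arterial liver 3 fell within the portal range (log2 fold change 2.30, SE 0.75, 1.33 without arterial liver 4, exact permutation p = 0.0571).

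Of the metabolic genes, UOX encodes urate oxidase, the peroxisomal enzyme that breaks down uric acid in most mammals. Its normalized count was 549.6, 320.3, 458 and 995 after arterial and 109, 277, 163 and 95.7 after portal infusion, without overlap (log2 fold change 1.84, SE 0.61, exact permutation p = 0.0286). DBI, whose product binds acyl-CoA esters, counted 8354, 6033, 4132 and 4529.9 against 2779, 3352, 1958 and 3198, again without overlap (log2 fold change 1.05, SE 0.38, exact permutation p = 0.0286). MT3, a gene of the metal-binding metallothionein family, counted 201, 204, 56.8 and 102 against 32.7, 26.2, 26.1 and 33.1 (log2 fold change 2.27, SE 0.83, exact permutation p = 0.0286). The portal livers were tightly grouped at this gene and all below the arterial ones, while control liver 2 was above all 8 infused livers at 73.6, 749 and 36.1 for the 3 controls. FMO5, a flavin-containing monooxygenase gene, counted 985, 1642, 1696 and 709 against 839, 658, 269 and 434 with overlap (log2 fold change 1.24, SE 0.43, exact permutation p = 0.0571). NQO1, a quinone reductase gene that responds to oxidative stress, counted 1153, 365, 136 and 1141 against 262, 223, 146 and 271 (log2 fold change 1.65, SE 0.56, exact permutation p = 0.229). Arterial livers 1 and 4 were far above the portal range at NQO1, whereas arterial liver 3 was below all 4 portal livers. DAB2, an endocytic adaptor gene, counted 1671, 647, 932 and 2830.3 against 819, 476, 584 and 501, with the low arterial liver 2 inside the portal range (log2 fold change 1.38, SE 0.45, exact permutation p = 0.0571). Without arterial liver 4 its log2 fold change was 0.90. The remaining entry, the microRNA locus ssc-mir-10390, counted 0, 299.9, 37171 and 225 against 104, 149, 186 and 71.2. Arterial liver 3 alone made this difference (log2 fold change 6.26, and 0.44 without it).

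**Figure D2:**
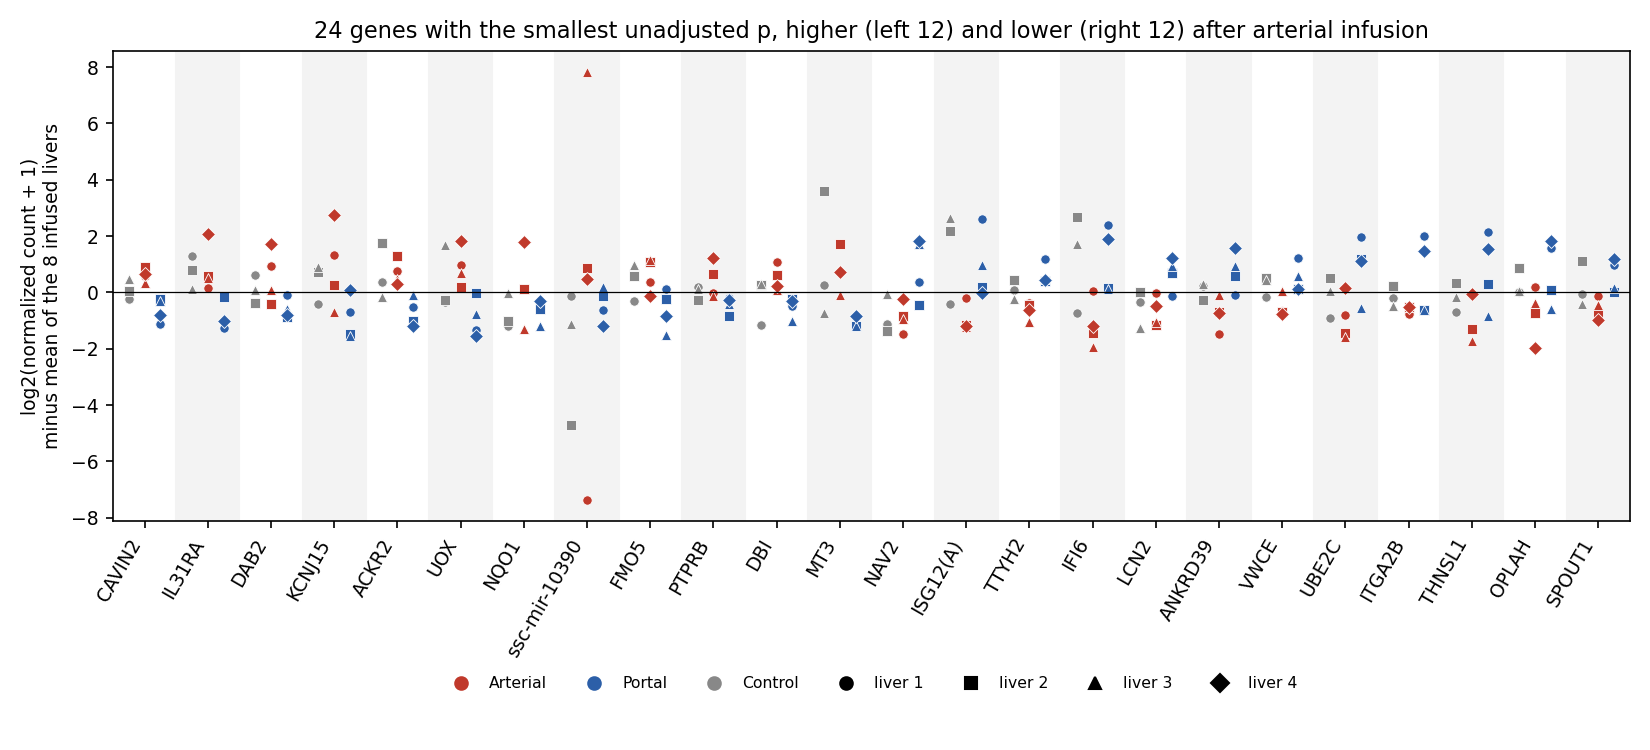
For each of 24 genes the points show the log2(normalized count + 1) of every liver minus the mean of the 8 infused livers, in grey for controls, red for arterial and blue for portal infusion, with 1 marker shape per liver number. Red lies above blue without overlap at CAVIN2, IL31RA, ACKR2, UOX, PTPRB, DBI and MT3, and below without overlap at ISG12(A), TTYH2, IFI6, VWCE and SPOUT1, while ssc-mir-10390 is set by arterial liver 3 alone.

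On the portal side the leading genes included a pair of interferon-stimulated genes, IFI6 and ISG12(A), which are taken up with their list below, and LCN2. LCN2 encodes lipocalin 2, an iron-siderophore binding protein that neutrophils store and that hepatocytes make in the acute phase response. It lies on chromosome 1 from 268609975 to 268614651, and its normalized count was 3639, 1672, 1777 and 2650.1 after arterial and 3382, 5959, 7105 and 8671 after portal infusion, with 2944, 3711 and 1554 in the controls. Portal livers 2, 3 and 4 were above all arterial livers and all controls, and portal liver 1 was inside the arterial range (log2 fold change -1.36, SE 0.43, exact permutation p = 0.0571). Leaving out any 1 liver kept the log2 fold change between -1.61 and -1.19. Against the controls it was 1.18 after portal (SE 0.47) and -0.18 after arterial infusion (SE 0.46).

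TTYH2, a gene of the tweety family of membrane proteins, counted 617, 591, 389 and 526 after arterial and 1834, 1057, 1126 and 1100.5 after portal infusion, without overlap (log2 fold change -1.24, SE 0.39, exact permutation p = 0.0286). VWCE, which encodes a secreted protein with von Willebrand factor C and EGF domains, counted 939.6, 924, 1519 and 882 against 3479, 1619.5, 2221 and 1611. The highest arterial liver was just below the lowest portal liver (log2 fold change -1.02, SE 0.35, exact permutation p = 0.0286). SPOUT1, the gene of an RNA methyltransferase, counted 313, 205, 249 and 172 against 671, 347, 383 and 793 (log2 fold change -1.18, SE 0.43, exact permutation p = 0.0286), again without overlap. Portal livers 1 and 4 were the highest, and without the 3 livers that stood apart the log2 fold change of SPOUT1 was -0.82. NAV2, a gene of a cytoskeletal protein related to cell migration, counted 44.6, 69.6, 64.9 and 105 against 161, 90.6, 414 and 444. Portal liver 2 fell within the arterial range, and the other 3 portal livers were above the controls at 56.2, 47.3 and 119 (log2 fold change -1.95, SE 0.59, exact permutation p = 0.0571, portal minus control 1.86, SE 0.66). ANKRD39 counted 41.0, 71.5, 109.5 and 70.2 against 108, 176, 223 and 353, with 1 arterial liver inside the portal range (log2 fold change -1.53, SE 0.50, exact permutation p = 0.0571).

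For the last 4 genes on this side the livers that stood apart carried part or all of the difference. UBE2C, a gene of mitotic exit, counted 54.4, 34.4, 30.8 and 106 against 378, 216, 64.2 and 207 (log2 fold change -1.89, and -1.33 without the 3 livers). THNSL1, a threonine synthase-like gene, counted 126, 54.8, 40.6 and 132 against 603, 166, 76.2 and 399 (-1.75, and -0.71 without them). OPLAH, whose enzyme opens 5-oxoproline in the glutathione cycle, counted 870.0, 464, 595 and 194 against 2269, 808, 516 and 2716 (-1.51, and -0.67 without them). ITGA2B, the platelet integrin alpha IIb gene, counted 189, 229, 240.1 and 229 against 1309, 209, 209.7 and 914, with portal livers 1 and 4 alone above the rest. Its log2 fold change of -1.49 went to -0.97 without portal liver 1 and 0.14 without the 3 livers.

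Interferon-stimulated genes were the list with the most members at an unadjusted p under 0.05. The list was written with earlier results of these data known, so that its counts are no independent evidence. Interferons bind receptors that act through kinases and transcription factors, and this switches on antiviral genes such as MX1, which blocks incoming viruses, RSAD2, which makes a chain-terminating nucleotide, and the IFIT genes, whose products bind foreign RNA. Of 16 genes listed, 15 were tested, and 8 of them were lower after arterial infusion at an unadjusted p under 0.05 (beside 1.32% of all genes), 0 were higher, and 0 passed the adjusted threshold. The median log2 fold change of the 15 genes was -1.65 against 0.04 over all genes, and 13 were below 0 (beside 47.1% of all genes).

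Most of this difference came from portal liver 3. MX1 counted 785, 1676, 1691 and 966 in the arterial and 2041, 1471, 34013 and 276 in the portal livers. Portal liver 3 was far above the rest, portal liver 4 was the lowest of all 8, and the exact permutation test gave p = 0.657 (n = 4 per route, log2 fold change -2.92). RSAD2 counted 103, 95.6, 183 and 229 against 0, 139, 8863 and 25.8, IFIT1 137, 473, 369.9 and 200.1 against 169.9, 269.9, 6728 and 34.4, and IFIT3 565, 338, 339 and 509 against 499.7, 255, 7293 and 185, each with portal liver 3 highest and the other portal livers around or below the arterial ones. USP18, the gene of a protease that removes ISG15 from proteins and dampens interferon signalling, counted 72.3, 89.1, 165 and 137 against 132, 226, 1883 and 114. The controls were as unequal, with RSAD2 at 49.8, 21.0 and 1881 and MX1 at 445, 739 and 7688.

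Without portal liver 3, 1 of the 15 genes was lower at an unadjusted p under 0.05, 1 was higher, and the median log2 fold change was 0.55. MX1 then had a log2 fold change of 0.08, RSAD2 1.44, IFIT1 0.92 and IFIT3 0.55. Leaving out each of the other 7 livers kept the median between -2.01 and -1.54. The count of genes at an unadjusted p under 0.05 nonetheless fell to 1 without arterial liver 2, 2 without arterial liver 4 and 3 without arterial liver 1 or 3, and was 7 to 10 without portal liver 1, 2 or 4. Without arterial liver 1 and portal livers 1 and 4, 8 of 15 were lower and the median was -1.97, a comparison in which portal liver 3 is 1 of only 2 portal livers.

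**Figure D3:**
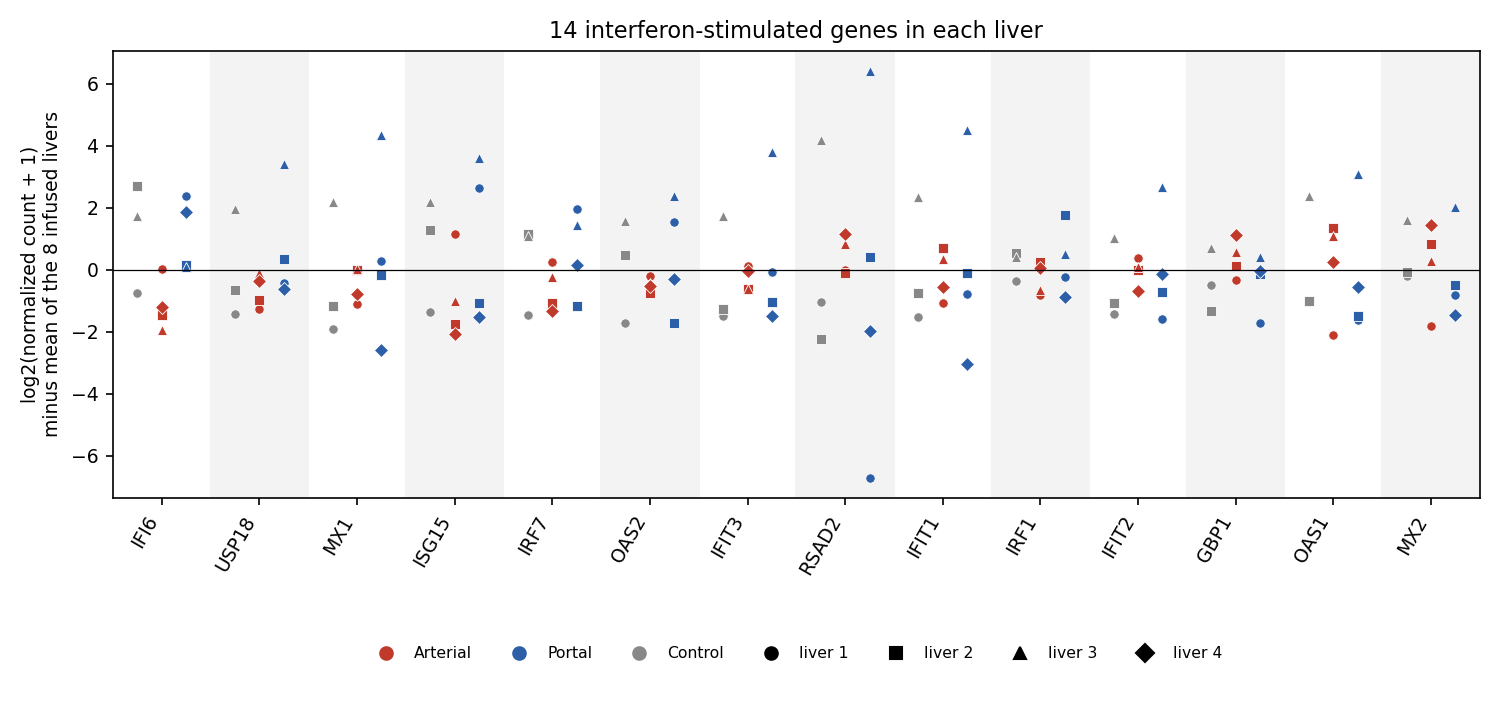
Log2(normalized count + 1) of 14 of the 15 interferon-stimulated genes tested, in each liver, minus the mean of the 8 infused livers, in grey for controls, red for arterial and blue for portal infusion, with 1 marker shape per liver number and the genes ordered by unadjusted p. Portal liver 3 (blue triangle) is the highest infused liver at MX1, ISG15, OAS2, IFIT3, RSAD2 and IFIT1, whereas at IFI6 all 4 portal livers lie above all 4 arterial livers.

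IFI6 and ISG12(A) followed another pattern. Both encode small interferon-induced proteins of the same family that sit in membranes of mitochondria and the endoplasmic reticulum. IFI6, on chromosome 6 from 84852782 to 84858072, counted 13945, 4940.5, 3568 and 5968 in the arterial and 70568, 15257, 14608 and 49930.4 in the portal livers, with portal livers 1 and 4 and not portal liver 3 at the top. Every portal liver was above every arterial liver (log2 fold change -2.34, SE 0.74, exact permutation p = 0.0286). It was the only member of its list without overlap between the routes (beside 0.498% of all genes with the arterial livers below). ISG12(A), on chromosome 7 from 115356619 to 115361537 and not a member of the list, counted 2532, 1303, 1242 and 1267 against 17494, 3309, 5656 and 2818, again without overlap and with portal liver 1 highest (log2 fold change -2.15, SE 0.67, exact permutation p = 0.0286). Leaving out any 1 liver kept the log2 fold change between -2.91 and -1.89 for IFI6 and between -2.46 and -1.34 for ISG12(A). Without the 3 livers that stood apart they were -1.65 and -1.83.

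The controls ranged widely at both genes, IFI6 at 8158, 87627 and 44718 and ISG12(A) at 2172, 13189 and 17994. Against them the arterial livers had a log2 fold change of -2.71 at IFI6 (SE 0.78) and -2.81 at ISG12(A) (SE 0.72). The portal livers had -0.36 (SE 0.76) and -0.66 (SE 0.69). ISG15, a ubiquitin-like protein gene, and IRF7, the transcription factor gene that amplifies the interferon response, were mixed. ISG15 counted 2447, 331, 546 and 263 against 6877, 526, 13495 and 384, with portal livers 1 and 3 above all others, and IRF7 counted 854, 342, 618 and 287 against 2822, 318, 1944 and 811, with the same pair at the top. OAS2, whose enzyme senses double-stranded RNA, counted 1694, 1153, 1443 and 1343 against 5652, 584, 10007 and 1589, where portal liver 2 was the lowest of the 8 and portal livers 1 and 3 the highest.

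The ligands, receptors and signal transducers of the pathway, a list added after the data were seen, had 19 genes of which 16 were tested, and 0 had an unadjusted p under 0.05 in either direction. IFNA1 and IFNB1 had 0 reads in all 8 livers, which allows up to 3 reads per library, and IFNG had at most 4. The receptor gene IFNGR2 was the only one without overlap (beside 0.498%), at 4124, 4053, 3372 and 4557 after arterial and 5486, 5600.2, 5002 and 4837 after portal infusion, a small difference (log2 fold change -0.36, SE 0.27, exact permutation p = 0.0286). IFNAR1, a chain of the type I interferon receptor, counted 3424, 4369, 3814 and 5110.5 against 4947, 5302, 5485 and 3671, with overlap. IFIH1, a sensor of viral RNA that is itself interferon-inducible, counted 105, 514, 269 and 299 against 297, 264, 1320.3 and 191, with portal liver 3 again the highest.

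Endothelial genes were mostly higher after arterial infusion, and again 1 liver carried much of it. CAVIN2 and PTPRB led to a list of 20 genes that endothelial cells of all vessels express, which was written after the data were seen and is therefore no independent evidence. Of the 20, 18 had a log2 fold change above 0 (beside 52.9% of all genes), 7 were higher at an unadjusted p under 0.05 (beside 1.09% of all genes), 0 were lower, and the median was 0.82. At 3 of them, CAVIN2, PTPRB and EMCN, the routes did not overlap (beside 0.910% of all genes). Summed over the list, the normalized counts did overlap, at 14934, 18208, 13426 and 26752 against 20510, 10536, 13932 and 17005. Portal liver 1 was above arterial livers 1 to 3 in this sum. EMCN, the gene of the endothelial sialoprotein endomucin, counted 184, 219, 133 and 241 after arterial and 47.8, 90.6, 126 and 46.6 after portal infusion (log2 fold change 1.30, SE 0.48, 0.84 without the 3 livers, exact permutation p = 0.0286), with the controls between the means of both routes at 131, 152 and 141.

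The receptors of vascular growth factors were among the 7. KDR, the gene of VEGF receptor 2, which is strongly expressed in sinusoids, counted 1163, 2939.6, 1685 and 3748 against 646, 1204, 1716 and 1022 (log2 fold change 1.05, SE 0.41, exact permutation p = 0.143). Arterial livers 2 and 4 were far above the portal livers, and arterial livers 1 and 3 were inside their range. FLT4, for VEGF receptor 3, counted 271, 586, 544 and 1037 against 200.1, 275, 425 and 293 (log2 fold change 1.04, SE 0.41, 0.66 without arterial liver 4, exact permutation p = 0.114), and TEK, for the angiopoietin receptor, 145, 409, 302 and 424 against 55.4, 142, 229.7 and 95.7 (log2 fold change 1.28, SE 0.55, exact permutation p = 0.0571). MMRN1, the gene of a coagulation factor V-binding protein of lymphatic endothelium and platelets, counted 106, 38.1, 107 and 172 against 17.6, 50.4, 9.03 and 18.4 (log2 fold change 2.15, SE 0.82, exact permutation p = 0.0571). PECAM1, a marker of all endothelium, counted 658, 1402, 1053 and 3420.2 against 797, 898, 1040.4 and 851, with arterial liver 4 alone above the portal livers by a wide margin (log2 fold change 0.88, SE 0.47, exact permutation p = 0.314).

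Without arterial liver 4 the median of the list was 0.31 and 2 of 20 genes were at an unadjusted p under 0.05, and the log2 fold change of PECAM1 was 0.23. Leaving out each of the other 7 livers gave medians between 0.75 and 1.03 and 5 to 8 such genes. Without the 3 livers that stood apart the median was 0.90 with 4 such genes. In genes of stellate cells and matrix, cholangiocytes and the capsule, arterial liver 4 also had the highest sums or counts of the 8 infused livers. For cholangiocytes this came from a single gene. For smooth muscle and pericytes arterial liver 4 was not the highest, with sums of 3404, 14470, 7134 and 7509 against 4085, 17893, 11901 and 3283. Summed over the list of stellate cells and matrix (12 of 12 genes tested), the normalized counts were 14563, 10541, 16268 and 43679 in the arterial and 23729, 16190.0, 10785 and 12187 in the portal livers. For cholangiocytes (10 of 12 tested) the sums were 4222, 2269, 2628 and 9165 against 6913, 4222, 2584 and 4272. A single gene, SPP1, made 5733 of the 9165 in arterial liver 4 and at most 1113 in the other infused livers. Without SPP1, portal liver 1 had the highest sum. WT1, the only gene of the mesothelium of the capsule that was tested, counted 0, 0, 2.43 and 29.3 against 0, 3.74, 3.01 and 0. The part of these cells in the endothelial difference was not tested. In whole tissue, more cells of a type and more RNA per cell cannot be told apart.

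**Figure D4:**
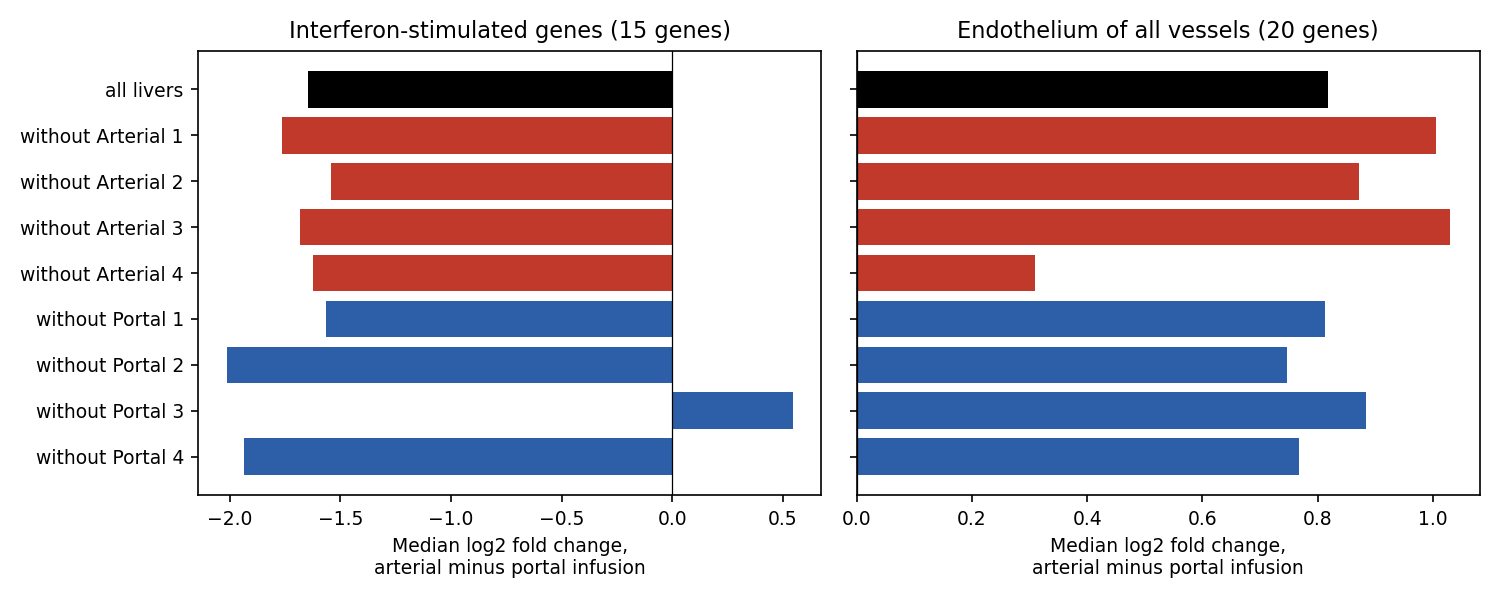
Bars give the median log2 fold change, arterial minus portal, of the interferon-stimulated genes (left, 15 genes) and of the endothelial genes (right, 20 genes, a list written after the data were seen), in black with all livers and in red or blue with 1 arterial or portal liver left out. The interferon median goes from -1.65 to 0.55 without Portal 3, and the endothelial median from 0.82 to 0.31 without Arterial 4.

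Lists for single parts of the vascular bed, written with the design but with earlier results of these data known, showed less. Of 12 genes of arterial endothelium 1 was higher after arterial infusion at an unadjusted p under 0.05 (beside 1.09% of all genes), the Notch receptor gene NOTCH4 (235, 329.6, 320.4 and 461 against 223, 132, 169.6 and 261), and the median log2 fold change was 0.26, or 0.13 without arterial liver 4. Its ligand gene DLL4 counted 317, 139, 145 and 441 against 138, 81.3, 46.1 and 255 (log2 fold change 1.05, SE 0.54, 0.67 without arterial liver 4, exact permutation p = 0.143). Of 8 genes of sinusoidal endothelium, KDR was the only one at that level (median 0.43, or 0.29 without arterial liver 3). LYVE1, the hyaluronan receptor of sinusoidal and lymphatic endothelium, counted 1449.9, 2103, 936 and 3475 against 1718, 805, 1207 and 1102 (log2 fold change 0.75, SE 0.39, 0.34 without arterial liver 4, exact permutation p = 0.257). Of 11 genes of endothelial activation, TEK was the only one (median 0.71, or 0.15 without arterial liver 4 and 0.25 without the 3 livers), and VWF, for the clotting factor carrier stored in endothelial granules, counted 149.9, 177, 269 and 577 against 216, 216, 74.2 and 128.

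Among 15 genes of flow response and vascular tone, 13 had a log2 fold change above 0 (beside 52.9% of all genes) and the median was 0.47, or 0.24 without arterial liver 2. EDN1, the gene of the vasoconstrictor endothelin 1, was the only one at an unadjusted p under 0.05 (beside 1.09% of all genes higher). It counted 21.4, 100.3, 112 and 199 after arterial and 0, 48.6, 20.1 and 0 after portal infusion, so that it was undetected in portal livers 1 and 4, where 0 reads allow up to 3, and lowest in arterial liver 1 among the arterial livers (log2 fold change 2.59, SE 1.16, exact permutation p = 0.0571). Its log2 fold change was 1.97 without these 3 livers. NOS3, the endothelial nitric oxide synthase gene, counted 51.8, 218, 151 and 407 against 94.4, 84.1, 115 and 98.1 (log2 fold change 1.10, SE 0.58, 0.54 without arterial liver 4, exact permutation p = 0.314). None of the 8 smooth muscle and pericyte genes had an unadjusted p under 0.05 (median 0.28, or 0.029 without portal liver 4 and -0.0088 without the 3 livers). At 1 of them, the muscle filament gene DES, the routes did not overlap (beside 0.910% of all genes with the arterial livers above), with 339, 369.5, 463 and 395 after arterial and 305, 329.7, 313 and 166 after portal infusion (log2 fold change 0.51, SE 0.38, 0.32 without portal liver 4, 0.33 without the 3 livers, exact permutation p = 0.0286), and it is named after its values were seen. The Notch receptor gene NOTCH3 of mural cells counted 30.3, 37.1, 53.5 and 74.4 against 0, 38.3, 19.1 and 2.45, and RGS5, a pericyte gene, 11.6, 20.4, 129.8 and 236 against 0, 51.4, 44.1 and 29.4.

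Few hepatocyte genes reached an unadjusted p under 0.05. PCK1, whose enzyme commits oxaloacetate to gluconeogenesis in periportal hepatocytes, lies on chromosome 17 from 57930507 to 57936523 and counted 40489, 37998, 46641 and 82089 after arterial and 36106, 25754, 27299.6 and 20105 after portal infusion. Every arterial liver was above every portal liver, by a narrow margin between arterial liver 2 and portal liver 1 (log2 fold change 0.95, SE 0.39, exact permutation p = 0.0286). It was the only one of 14 periportal genes at an unadjusted p under 0.05 (beside 1.09% of all genes higher), 11 of the 14 had a log2 fold change above 0 (beside 52.9%), and the median was 0.51, or 0.30 without portal liver 1. G6PC1, which releases free glucose at the end of the same pathway, counted 5258, 8720.4, 6929 and 14479 against 3673, 5253, 3046 and 7873, with portal liver 4 inside the arterial range (log2 fold change 0.86, SE 0.44, 0.52 without arterial liver 4, exact permutation p = 0.114). Of 13 pericentral genes 0 were at that level (median 0.20, or 0.0077 without arterial liver 2). Among them RGN, a calcium-binding protein gene, had a log2 fold change of 0.72 (SE 0.40, 0.36 without the 3 livers), and the glutamate transporter gene SLC1A2 had -1.07 (SE 0.74, 0.44 without portal liver 4, 0.39 without the 3 livers), which came from portal liver 4 alone at 1655 normalized counts.

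The 12 plasma protein genes had a median of 0.07, or 0.0039 without portal liver 4 and -0.23 without the 3 livers, and 0 of them had an unadjusted p under 0.05. ALB counted 1030349, 1667787, 1752744 and 1337798 after arterial and 520054, 864341, 1355504 and 468109.7 after portal infusion (log2 fold change 0.85, SE 0.55, exact permutation p = 0.0857). Portal livers 1 and 4 were the lowest, and without the 3 livers that stood apart the log2 fold change of ALB was 0.50. RBP4, for the carrier of retinol, had a log2 fold change of 0.46 (SE 0.36, 0.30 without portal liver 4, 0.19 without the 3 livers). The 20 genes of cholesterol synthesis had a median of 0.13, or -0.59 without arterial liver 1 and -0.39 without the 3 livers. There were 0 such genes, with the smallest unadjusted p at INSIG1, which holds back the sterol-regulated transcription factors (0.66, SE 0.39, 0.41 without portal liver 4, 0.28 without the 3 livers), and IDI1 (1.27, SE 0.75, 0.36 without arterial liver 1, 0.68 without the 3 livers). The 13 protein genes of the mitochondrial genome had a median of 0.46, or -0.18 without arterial liver 2, with 9 of the 13 below 0 when that liver was left out. There were 0 such genes. Among the 13 were ND4 at 0.80 (SE 0.63, 0.27 without arterial liver 2) and ATP6 at 0.60 (SE 0.49, 0.078 without arterial liver 2). Mitochondrial genes took 7.46% to 22.0% of all counts in arterial and 5.58% to 16.0% in portal livers, which overlapped widely.

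Genes of stress responses overlapped between the routes. Of 14 heat shock protein genes 12 had a log2 fold change above 0 (beside 52.9% of all genes), with a median of 0.79, but only BAG3, a co-chaperone of HSP70, was higher at an unadjusted p under 0.05 (beside 1.09%). It counted 11774, 17281, 6283 and 21049.6 against 7549, 4245, 9535 and 7967, with arterial liver 3 inside the portal range (log2 fold change 0.96, SE 0.42, exact permutation p = 0.143). The HSP40 gene DNAJA1 counted 2465, 11506, 3309.8 and 9084 against 1853, 2757, 3848 and 3709, where arterial livers 2 and 4 were high and arterial livers 1 and 3 were not (log2 fold change 1.12, SE 0.57, 0.72 without arterial liver 2, exact permutation p = 0.257). The 14 genes of the integrated stress and unfolded protein response had 0 at that level (median 0.17, or 0.064 without arterial liver 2), with CHAC1, a glutathione-degrading target of ATF4, at 1.59 (SE 0.91, 0.88 without arterial liver 2) and SESN2 at 0.94 (SE 0.65, 0.42 without arterial liver 2). The 18 hypoxia genes had 0 (median -0.10, or 0.21 without portal liver 1 and 0.23 without the 3 livers), with the glycolytic regulator PFKFB3 at -0.84 (SE 0.45, -0.33 without portal liver 2) and CA9, a carbonic anhydrase, at -0.68 (SE 0.58, 0.051 without portal liver 1, 0.088 without the 3 livers). The 16 immediate early genes had 0 (median 0.11, or -0.27 without arterial liver 2). FOSB ranged over more than the routes differed, at 23.2, 6588, 1023 and 69.2 in arterial and 49.1, 379, 564 and 204 in portal livers, and without arterial liver 2 its log2 fold change went from 2.65 to 0.35. NR4A1, an orphan nuclear receptor gene, had -0.92 (SE 0.49, -0.51 without the 3 livers).

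**Figure D5:**
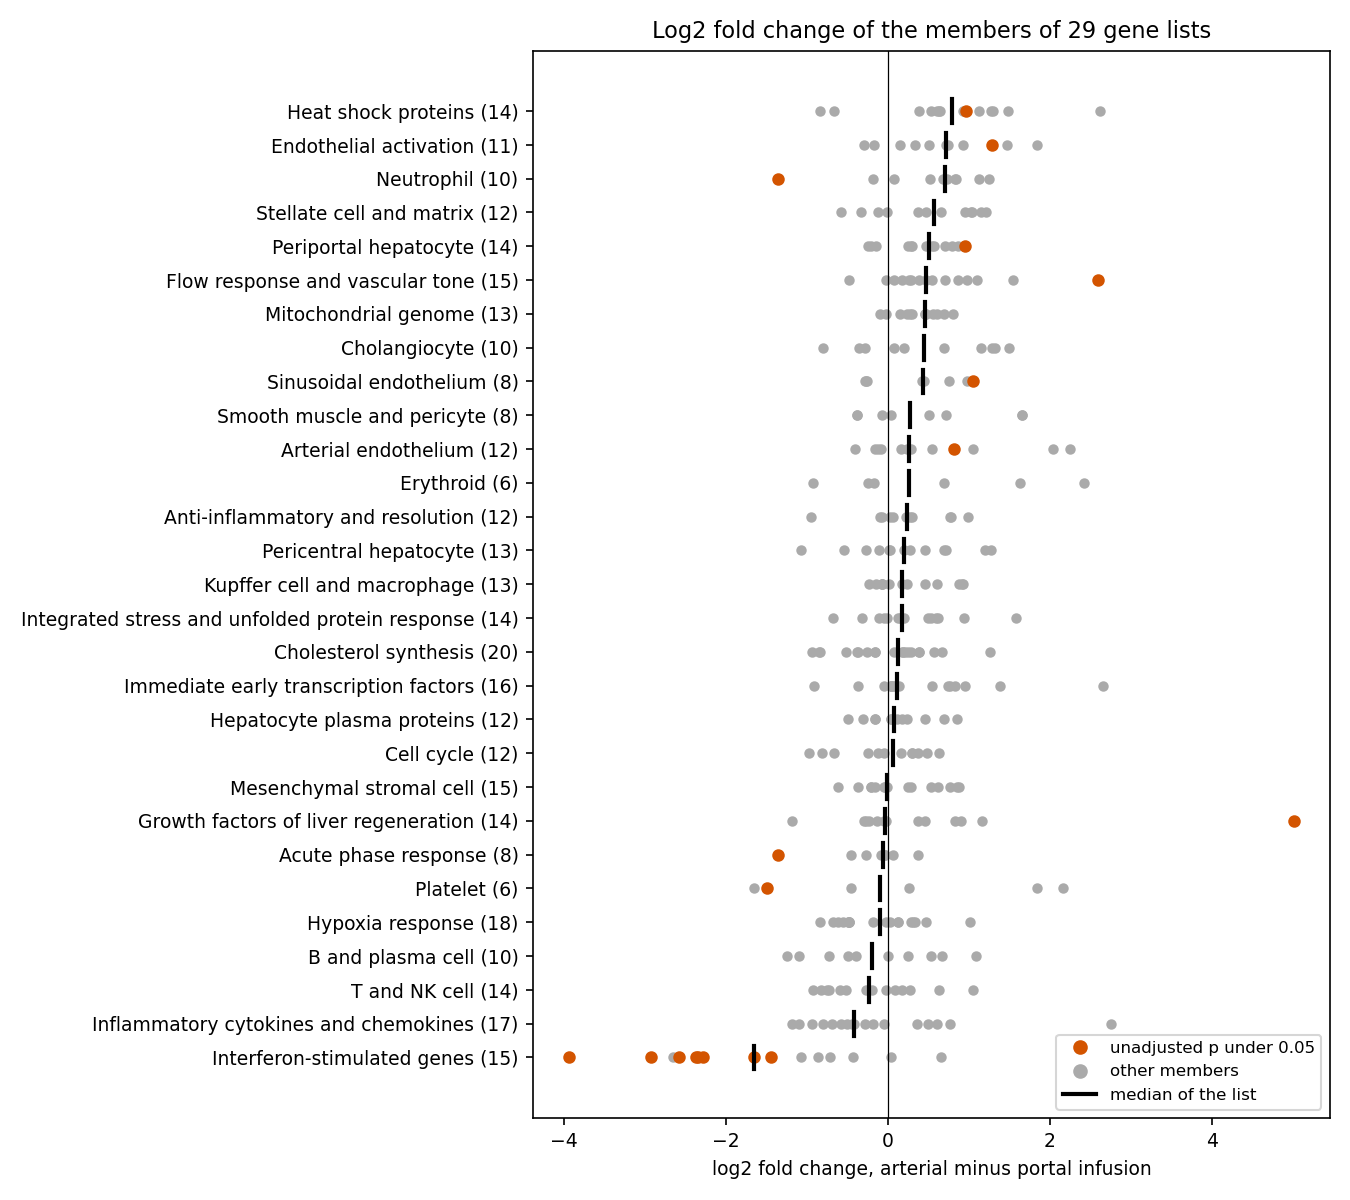
Each row is 1 gene list written with the design but with earlier results of these data known. The number of genes tested is in brackets, and lists with fewer than 5 are left out. Each point is the log2 fold change of 1 member, arterial minus portal infusion, on the x axis. Orange marks an unadjusted p under 0.05 and the black bar the median, which lies between -0.42 and 0.79 for all lists but the interferon-stimulated genes at -1.65.

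Genes of inflammatory mediators overlapped as well. Of 17 cytokine and chemokine genes 0 had an unadjusted p under 0.05, 12 had a log2 fold change below 0 (beside 47.1% of all genes), and the median was -0.42, or 0.45 without portal liver 2 and 0.081 without the 3 livers. CXCL10, an interferon-inducible chemokine, counted 367, 2827, 690.3 and 1085 against 396, 475, 1371 and 648, with the highest value in arterial liver 2 and not in portal liver 3. CCL26, another chemokine gene, was at or near 0 reads in most livers. Among 12 anti-inflammatory and resolution genes 0 were at that level (median 0.23, or -0.021 without arterial liver 4), with the mannose receptor gene MRC1 at 0.78 (SE 0.38, 0.44 without arterial liver 4) and the decoy receptor gene IL1R2 at 0.99 (SE 0.52, 0.49 without arterial liver 1, 0.23 without the 3 livers). Of 8 acute phase genes LCN2 was the only one, lower (beside 1.32% of all genes, median -0.06), and PIGR, for the transporter of polymeric antibodies, had 0.38 (SE 0.51, 0.059 without arterial liver 4).

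Of 14 growth factor genes of liver regeneration the EGF receptor ligand AREG was the only one at an unadjusted p under 0.05 (higher, beside 1.09% of all genes), on few reads, with normalized counts of 0, 4.64, 4.87 and 38.8 after arterial and 0, 0.934, 0 and 0 after portal infusion. The 3 controls were at 7.12, 19.3 and 7.23, and arterial liver 4 was the only infused liver above all of them. The median of this list was -0.03, or 0.38 without portal liver 2 and 0.24 without the 3 livers, and GDF15, a stress-induced hormone gene, had 0.90 (SE 0.67, 0.33 without arterial liver 2). The 12 cell cycle genes had 0 (median 0.06, or -0.16 without arterial liver 4 and -0.38 without the 3 livers), with CCND1, which opens the cycle, at -0.66 (SE 0.46, -0.33 without portal liver 1) and the replication gene MCM5 at -0.81 (SE 0.53, -0.47 without portal liver 1, -0.39 without the 3 livers).

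Markers of blood and immune cells also overlapped. Among 10 neutrophil genes LCN2 alone had an unadjusted p under 0.05, and it was lower after arterial infusion (beside 1.32% of all genes). Of the 10, 8 had a log2 fold change above 0 (beside 52.9%), or 5 without arterial liver 1, and the median was 0.71, or -0.11 without arterial liver 1 and 0.25 without the 3 livers. MMP8, a collagenase of neutrophil granules, counted 552, 171, 80.3 and 1268 against 107, 421, 162 and 175, with arterial liver 4 highest (log2 fold change 1.24, SE 0.71, 0.29 without arterial liver 4, 0.75 without the 3 livers, exact permutation p = 0.514). Of 13 Kupffer cell and macrophage genes 0 were at that level (median 0.18, or -0.059 without arterial liver 4 and -0.070 without the 3 livers), with CD68 at 0.92 (SE 0.53, 0.43 without arterial liver 4). The scavenger receptor gene MARCO had 0.88 (SE 0.88, -0.38 without the 3 livers), set by arterial liver 1, without which it was -1.44. Of 14 T and NK cell genes 0 were (median -0.23, or -0.11 without portal liver 1 and 0.37 without the 3 livers). CD3E, a subunit of the T cell receptor complex, counted 215, 216, 114 and 162 against 842, 116, 70.2 and 389, highest in portal livers 1 and 4, and CD4 had -0.59 (SE 0.44, -0.21 without the 3 livers). Of 10 B and plasma cell genes 0 were (median -0.20, or 0.24 without portal liver 4 and 0.15 without the 3 livers), with POU2AF1 at -1.25 (SE 0.67, -0.037 without the 3 livers) and MZB1 at -1.10 (SE 0.94, -0.36 without portal liver 4, -0.43 without the 3 livers). Of 6 platelet genes ITGA2B was the only one, lower (beside 1.32% of all genes, median -0.09, or 0.47 without portal liver 1 and 0.77 without the 3 livers), and GP9, of the platelet receptor for von Willebrand factor, counted 0, 10.2, 8.11 and 10.5 against 62.9, 0.934, 4.01 and 30.7, again highest in portal livers 1 and 4. The 6 erythroid genes had 0 (median 0.26, or -0.74 without arterial liver 4), with HBM, a globin gene, at 1.63 (SE 1.36, 0.96 without arterial liver 4) and CA1 at 2.42 (SE 2.00).

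Genes known from mesenchymal stromal cells overlapped between the routes, without a common direction. Of 15 tested 0 had an unadjusted p under 0.05, 7 had a log2 fold change above 0 (beside 52.9% of all genes) and 8 below, and the median was -0.02, or 0.30 without arterial liver 1 and 0.085 without the 3 livers. B2M, the light chain of MHC class I, counted 19138, 10157, 8161 and 12808 after arterial and 34251, 16485, 16249.7 and 11785 after portal infusion, with overlap (log2 fold change -0.61, SE 0.43, -0.27 without portal liver 1, exact permutation p = 0.257), and SPARC, a matrix protein gene, had 0.87 (SE 0.64, 0.14 without arterial liver 4). These genes are also expressed by cells of the liver, and the counts are of pig genes. The 12 stellate cell and matrix genes had a median of 0.57, or 0.021 without arterial liver 4, and 0 of them were at that level. RELN, a gene of stellate cells and lymphatic endothelium, counted 1106, 765, 1541 and 1408 against 774, 731, 715 and 902 (log2 fold change 0.66, SE 0.31, exact permutation p = 0.0857). The collagen crosslinking gene LOX counted 435, 231, 204 and 1727 against 508, 185, 136 and 330.0, where arterial liver 4 was the highest, and its log2 fold change went from 1.22 to 0.05 without that liver. Of 10 cholangiocyte genes 0 were at that level (median 0.44, or -0.14 without arterial liver 4 and 0.21 without the 3 livers), with SPP1, for osteopontin, highest in arterial liver 4 and at -0.61 without it, and the bicarbonate exchanger gene SLC4A2 at -0.80 (SE 0.52, -0.17 without portal liver 1, 0.018 without the 3 livers).

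A few genes passed an adjusted threshold in other fits, and they are named here after their values were seen. DDIT4L, a gene related to the stress-induced mTOR inhibitor DDIT4, lies on chromosome 8 from 120371724 to 120376444. It had the raw counts 76, 31, 39 and 18 in arterial livers 1 to 4 and 0, 2, 3 and 0 in portal livers 1 to 4, and its normalized counts were 67.8, 28.8, 31.6 and 18.9 against 0, 1.87, 3.01 and 0. The routes did not overlap, and the controls, at 22.9, 38.5 and 83.8, were in and above the arterial range. In edgeR's test its log2 fold change was 4.70 with a standard error of 1.11 and an adjusted p of 1.00, and DESeq2 over the 13 libraries gave 4.81 with an adjusted p of 0.00715, its only call. Leaving out any 1 liver kept edgeR's value between 4.25 and 5.51, and it was 3.37 without the 3 livers that stood apart, 2 of which had 0 reads. Against the controls the log2 fold change was -5.11 after portal infusion (SE 1.15) and -0.41 after arterial infusion (SE 0.98).

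Without the filter on low counts, edgeR called 5 of 24918 genes, each set by a single liver. They were ssc-mir-10390 by arterial liver 3, MX1 and RSAD2 by portal liver 3, and a pair without a symbol. ENSSSCG00000059961 counted 1207, 7.43, 0.811 and 0 after arterial and 0, 1.87, 3.01 and 0 after portal infusion, and ENSSSCG00000062725 0, 0, 11.4 and 0 against 0, 894, 0 and 0. At these 5 genes the other livers of the same route lay in or near the range of the other route.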

How the data were processed

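Bulk RNA was sequenced from non-directional poly-T libraries, so that reads of overlapping genes on opposite strands cannot be told apart. The authors mapped reads to Sscrofa11.1 with HISAT2 and deposited raw counts per gene from FeatureCounts, with Ensembl annotation, without normalization. The versions of both tools and the handling of reads with several matches are not given in the sources used here. Library labels named all columns, and 0 had no sample. Livers of a route differed by more than sampling noise, with a chi-square per gene of at least 77.1.

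From these counts, edgeR 4.0.16 (R 4.3.3) tested arterial against portal infusion in 1 fit over 13 libraries and 4 groups, with filterByExpr, TMM and its quasi-likelihood test, adjusted by Benjamini-Hochberg. The common biological coefficient of variation was 0.729. DESeq2 1.42.0 gave size factors, the variance stabilized values and an alternative test, limma 3.58.1 (voom) and sva 3.50.0 further alternatives. Scripts were tested on simulated data. Counts are reads without molecular identifiers, and intervals and limits of 0 reads cover counting error only.

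The 79 genes named by rule were the 12 with the smallest unadjusted p in each direction (symbol, average log2 CPM of at least 1) and 2 per list for 30 lists. A further 16 genes and 2 lists were chosen after their values were seen. All members and lists were chosen with earlier results of these data known. Coordinates are from a RefSeq table of Sscrofa11.1, matched by symbol. No sequences were used here. The values of 1 list member are not reported here.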

Additional observations from a re-analysis of the deposited data

Results flagged for a closer look

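Within each route, a liver was picked out where its gap to the nearest of the other 3 exceeded Dixon's 95% critical share of the range of the 4 livers, on normalized counts or on their log2 values. Of 200 sets of 4 values examined, 32 were picked out. The critical share holds for normally distributed values in sets fixed beforehand, whereas these are mostly counts of genes chosen by their values. How many sets chance alone would pick out here is therefore not known, and the 32 are only a description. Values are normalized counts.

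Portal liver 3 was high at MX1 (34013, the other portal livers at most 2041), RSAD2 (8863, at most 139), IFIT3 (7293, at most 499.7), IFIT1 (6728, at most 269.9) and USP18 (1883, at most 226), all interferon-stimulated, and at CCL26 (5.02, the others 0). Arterial liver 4 was high at LOX (1727, the other arterial livers at most 435), SPP1 (5733, at most 540.4), WT1 (29.3, at most 2.43), IL31RA (328, at most 116) and AREG (38.8, at most 4.87).

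Arterial liver 1 was high at ISG15 (2447, the others at most 546), ISG12(A) (2532, at most 1303), MARCO (3695, at most 331), MZB1 (201, at most 47.2) and ENSSSCG00000059961 (1207, at most 7.43), and had 0 at GP9, where the others had at least 8.11. Arterial liver 2 was high at FOSB (6588, at most 1023) and low at SLC1A2 (156, the others at least 281). Arterial liver 3 was high at ssc-mir-10390 (37171, at most 299.9), VWCE (1519, at most 939.6) and ENSSSCG00000062725 (11.4, the others 0).

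Portal liver 1 was high at TTYH2 (1834, at most 1126) and low at ND4 (42005, the others at least 223790) and RGS5 (0, at least 29.4). Portal liver 2 was high at IL1R2 (251, at most 145) and ENSSSCG00000062725 (894, the others 0), and portal liver 4 at SLC1A2 (1655, at most 199) and HBM (52.8, at most 8.41). Portal liver 2 was also picked out at CA1 (2.80, raw count 3) and AREG (0.934, raw count 1), with the others at 0. Where the others are at 0, any read is picked out. Since 0 reads allow up to 3, CA1 and AREG do not set portal liver 2 apart. Portal liver 4 was low at DES (166, the other portal livers at least 305).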

How the results depend on the processing

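Adjusted calls were 0 in all fits but DESeq2 over 13 libraries, which called 1 gene, and edgeR without a filter on low counts, which called 5. Genes at an unadjusted p under 0.05, 396 as reported, were 883 with DESeq2 over 13 libraries, 152 with edgeR over 8 and 248 over 11 libraries, 889 with limma voom, 1264 without a filter, 237 at 10 counts or more in every library, 607 with 1 surrogate variable, and 298 to 773 with 1 liver left out. The higher share of these genes after arterial infusion, 45.2% as reported, was 66.9% with 1 surrogate variable, 60.2% without arterial liver 1 and portal livers 1 and 4 (a choice made after seeing the data) and 31.2% at 10 counts or more in every library. It ranged from 27.7% to 63.5% with 1 liver left out. Interferon-stimulated genes lower at an unadjusted p under 0.05, 8 as reported, were 5 with DESeq2 over 13 and 4 over 8 libraries (11 and 9 genes with a p), 4 with edgeR over 11 libraries, 3 with limma voom, and 1 to 10 with 1 liver left out.

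Livers of the same number in both routes correlated in their deviations at 0.386, 0.257, 0.401 and -0.106. The last was below 0.1, not every liver correlated best with its own number, and the labels name no shared day or litter, so that the number was not taken as a pairing. With that number as a block, the replicate block fit over 8 libraries called 0 genes past the adjusted threshold, while 254 had an unadjusted p below 0.05. Of 15 interferon-stimulated genes, 3 were lower and 1 was higher at that unadjusted level. A log2 fold change below 0 was seen at 10 of the 15 (median -0.22). In this fit RSAD2 turned to 0.81 and MARCO to -0.22.

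Log2 fold changes of other named genes that turned were, with limma voom, MMP8 -0.44, SPP1 -0.35, SLC1A2 0.21, CD3E 0.58, GP9 1.52, CA1 -0.65, WT1 -0.59, CA9 0.044 and MARCO -0.31. With 1 surrogate variable CD3E turned to 0.043. Without arterial liver 1 and portal livers 1 and 4, ITGA2B turned to 0.14, SLC4A2 0.018, SLC1A2 0.39, CD3E 0.80, GP9 1.90, CA9 0.088 and MARCO -0.38. With 1 liver left out the ranges across 0 were -1.44 to 1.28 for MARCO, -0.0022 to 1.33 for CXCL10, -0.61 to 2.00 for SPP1, -0.96 to 2.75 for WT1, -1.14 to 0.051 for CA9, -1.36 to 0.44 for SLC1A2, -3.33 to 0.078 for MX1, -4.34 to 1.44 for RSAD2, -3.06 to 0.92 for IFIT1, -2.66 to 0.55 for IFIT3 and -10.89 to 4.70 for ENSSSCG00000062725. Among the medians of lists, moves beside those given above included erythroid genes to 1.66 and platelet genes to 0.77 without the 3 livers. With limma voom they included neutrophil genes to -0.40 (7 of 10 below 0), cholangiocyte genes to -0.053 and endothelial activation genes to -0.074 (6 of 11 below 0). The median of the endothelial genes of all vessels was 0.74 in that fit. The cause was not tested. With 4 livers per route and the spread between them, a gene needed a large difference to pass, and a p that missed the threshold does not show that the routes acted alike.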
